A study of Rattus norvegicus with 2 samples.

Results

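The genes described here encode the rat major histocompatibility complex (RT1) and the proteins that load its molecules with peptide, measured in sympathetic neurons of the stellate ganglia. They were chosen by symbol: every gene whose name starts with RT1-, together with B2m, Tap1, Tap2, Tapbp, Cd74, Ciita, Nlrc5, Erap1, Canx, Calr and Pdia3. This rule found 42 genes among the 25399 listed, of which 21 are class I RT1 genes, 10 are class II RT1 genes and 11 belong to the loading machinery. The stellate ganglion holds the cell bodies of the sympathetic neurons that innervate the heart. Ganglia were dissociated with collagenase and trypsin and sequenced as single cells in 1 library of Wistar rats, which are normotensive, and 1 of spontaneously hypertensive rats (SHRs) at a prehypertensive age, all animals of 5 to 6 weeks of age with no treatment named and, by the study's methods, male. How many animals each library pools is not given in the sources used here. The authors selected the sympathetic neuron cluster and deposited 1 value per gene and library, a mean over neurons on a natural log scale, which was converted back to counts per 10000 here. The paper describes sympathetic populations that differ mainly in neuropeptide Y expression, and their shares in each mean are not given in the sources used here.

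Class I molecules sit on most nucleated cells and show peptides from the inside of the cell to cytotoxic T cells, while class II molecules are known from professional antigen-presenting cells and show peptides taken up from outside to helper T cells. A class I molecule is a heavy chain (an RT1 gene) bound to the light chain β2-microglobulin (B2m), filled in the endoplasmic reticulum with peptides that the transporter of Tap1 and Tap2 brings in. A class II molecule is an alpha and a beta chain that travel with the invariant chain (Cd74). Neurons are known for low class I levels at rest, and interferon is known to raise the genes of both pathways.

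Both classes are known to be driven through short promoter boxes, so the stretches that hold them are shown for the genes the results turn on. Sequences are RefSeq's from the GRCr8 assembly, which is not the Rnor_6.0 build behind the values, and 34 of the 42 genes had an entry by symbol. In the 300 bases around each annotated start, 4 motifs were searched on both strands. The Y box, CCAAT or ATTGG on the other strand, was found in 9 of 9 class II promoters, 13 of 18 class I promoters and 4 of 7 promoters of the loading machinery, against 37.5% of all 33469 promoters of this length. The 4 class II genes with the highest means show it in capitals, in bases before the annotated start and outside any gene span.
RT1-Da (chr20:4515285-4515392, plus strand): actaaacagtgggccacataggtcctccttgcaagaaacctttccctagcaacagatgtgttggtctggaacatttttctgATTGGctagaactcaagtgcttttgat
RT1-Db1 (chr20:4560183-4560292, minus strand): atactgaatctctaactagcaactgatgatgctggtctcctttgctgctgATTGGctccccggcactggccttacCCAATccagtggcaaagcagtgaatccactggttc
RT1-Ba (chr20:4576927-4577056, plus strand): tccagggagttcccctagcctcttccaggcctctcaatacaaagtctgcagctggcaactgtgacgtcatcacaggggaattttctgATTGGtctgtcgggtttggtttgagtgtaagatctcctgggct
RT1-Bb (chr20:4604119-4604248, minus strand): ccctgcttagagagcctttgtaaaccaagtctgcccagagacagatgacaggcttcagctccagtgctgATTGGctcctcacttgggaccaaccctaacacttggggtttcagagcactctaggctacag

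The interferon response element (a pair of GAAA blocks set 2 bases apart) was found in 4 of 7 promoters of the loading machinery, 3 of 18 class I promoters (RT1-S2, RT1-S3 and RT1-N3) and 0 of 9 class II promoters, against 3.92% of all promoters. Its 4 holders among the loading genes are B2m, Tap1, Tap2 and Tapbp, shown with the element in capitals. Tapbp holds 2 overlapping matches, and only these are printed.
B2m (chr3:129549170-129549235, plus strand): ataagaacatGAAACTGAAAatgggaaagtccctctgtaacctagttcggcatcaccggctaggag
Tap1 (chr20:4668544-4668703, minus strand): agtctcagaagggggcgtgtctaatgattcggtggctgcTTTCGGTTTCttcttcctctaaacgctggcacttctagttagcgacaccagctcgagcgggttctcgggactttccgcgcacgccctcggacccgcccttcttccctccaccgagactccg
Tap2 (chr20:4652297-4652456, minus strand): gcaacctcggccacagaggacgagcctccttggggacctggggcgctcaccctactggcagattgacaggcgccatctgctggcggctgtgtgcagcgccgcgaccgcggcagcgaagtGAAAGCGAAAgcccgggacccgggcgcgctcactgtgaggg
Tapbp (chr20:4967888-4967903, minus strand): GAAAATGAAAGTGAAA

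The gamma interferon activated sequence TTCNNNGAA was found in the promoter of RT1-M3-1 and in no other member's, against 8.87% of all promoters. The motif TGACG, a part of the cyclic AMP response element, was found in 5 of 18 class I, 1 of 9 class II and 3 of 7 loading promoters, against 21.2% of all. In several class I genes the Y box stands as a pair on opposite strands, shown as the 29 bases that end with CCAAT.
RT1-A1 (chr20:4907178-4907206, plus strand): ATTGGgtgctgtgaaccctgtgaaCCAAT
RT1-A2 (chr20:4872791-4872819, plus strand): ATTGGgtgccgtgaaccctgtgaaCCAAT
RT1-CE10 (chr20:3385051-3385079, minus strand): ATTGGgtgccgtgaaccctgtgaaCCAAT
RT1-CE5 (chr20:3484134-3484162, minus strand): ATTGGgtgccgcgatccgtgtgaaCCAAT
RT1-CE4 (chr20:3509227-3509255, minus strand): actgggtggcgtgaaccctgtgaaCCAAT
RT1-A2 and RT1-CE10 have the same letters here, and RT1-CE4 has a CCAAT but not the ATTGG of this pair. Over the aligned bases of the 300-base windows, 230 to 299 per pair, RT1-A1 and RT1-A2 were 92.4% identical, while the other pairs among RT1-A1, RT1-A2, RT1-CE4, RT1-CE5 and RT1-CE10 were 83.3% to 86.5% identical. RT1-M3-1 was 60.0% to 65.1% identical to these genes. Such matches are descriptions of letters and not measured sites.

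Each strain has 1 library and replicate error cannot be estimated, so no difference between the strains below carries an error or a test. The number of neurons and the depth per neuron are unknown, and no counting interval can be given. The smallest mean above 0 was 0.00014 per 10000 in Wistar and 0.00039 in SHR, and genes near these values are at the limit of what the data can show. The 8 listed markers of sympathetic neurons summed to 127 per 10000 in Wistar and 147 in SHR. Of these 8, 5 were lower and 3 higher in SHR, against 65.6% lower among all genes averaging at least 0.1 per 10000. Th had means of 10.2 and 10.1 per 10000 in Wistar and SHR, Dbh had 10.2 and 6.36, and Slc6a2 had 15.9 and 15.2. The 43 listed markers of other cell types summed to 11.2 per 10000 in Wistar and 3.50 in SHR, and 35 of them were lower in SHR. Of the 43, 8 averaged 0.1 per 10000 or more, and all 8 were lower by at least 1.5-fold, against 26.5% of all genes with such averages. The other markers lie below this level, where no share of all genes lower in SHR was computed. Counts of 3′ tags do not grow with transcript length, so levels of different genes can be set side by side as tags.

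Of the 42 genes, 6 were at 0 in both libraries, 36 were above 0 in at least 1 and 16 averaged 0.1 per 10000 or more across the libraries. Unless another setting is named, this minimum holds for counts set beside a share of all genes. Some counts of listed markers and pathway genes also include genes below it. Of these 16, 14 were lower and 2 higher in SHR, against 65.6% of all 7621 genes past the minimum that were lower. By a fixed rule of size, a ratio of the means of at least 1.5, 7 of the 16 were lower in SHR against 26.5% of all genes, and 1 of the 16 was higher against 5.22% of all genes. Their median log2 difference, SHR minus Wistar after adding 1 to both means, was -0.22, and that of all genes was -0.05. Adding 1 shrinks log2 differences more at low means, so these medians also depend on level. Among the members 6 of 16 averaged at least 1 per 10000, and among all genes 1676 of 7621. The share of genes past 1.5-fold depends on their level. Among genes averaging 0.1 to 0.3 per 10000, 3 of 5 members and 37.0% of all genes were lower by this size, and among those from 0.3 to 1 it was 4 of 5 members and 24.5% of all genes. None of the 3 members from 1 to 3 per 10000 and none of the 3 from 3 to 10 was lower by this size, against 13.5% and 7.44% of all genes.

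**Figure D1:**
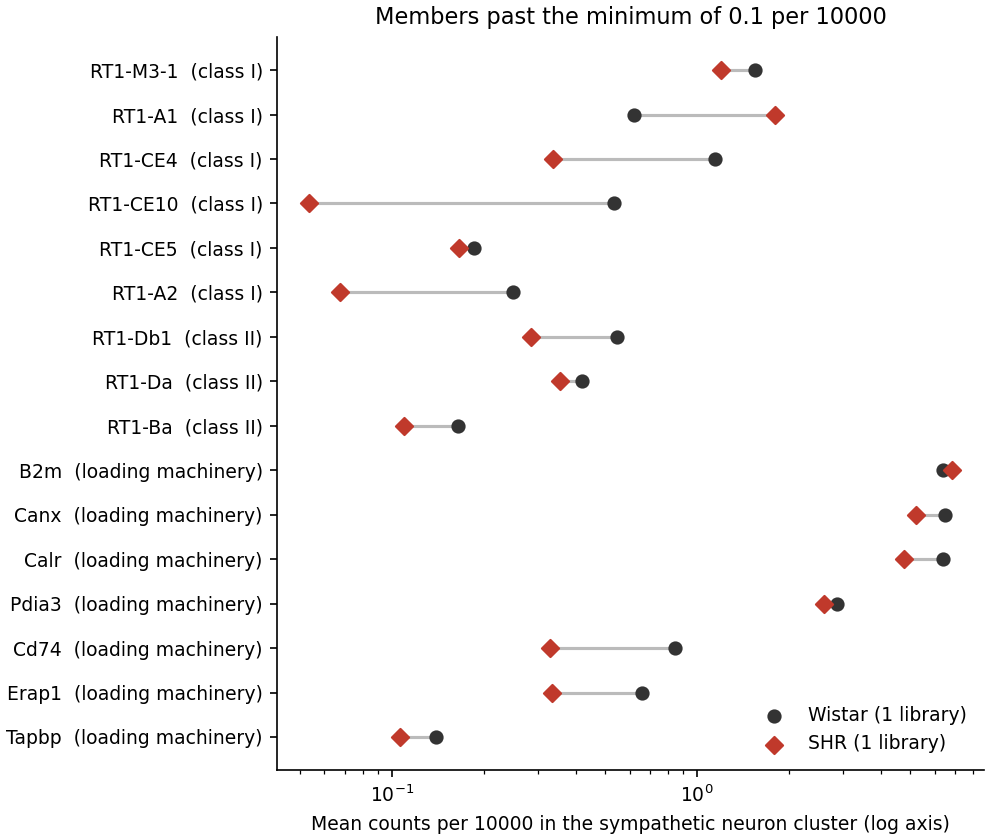
Mean counts per 10000 in the sympathetic neuron cluster (log axis) for the 16 genes past the minimum, with circles for the Wistar library and diamonds for the SHR library. RT1-A1 and B2m have the SHR diamond to the right of the Wistar circle, and the other 14 have it to the left.

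Of the 6 class I heavy chain genes past the minimum, 5 were lower in SHR, against 65.6% of all genes. The 1 higher gene was a classical one. RT1-A1, a classical class I gene, averaged 0.623 per 10000 in Wistar neurons against 1.80 in SHR neurons, which is 2.89-fold higher, with a log2 difference of 0.79. Only 12 of the 7621 genes past the minimum had a larger ratio in favour of SHR. RT1-A2, its classical neighbour, was lower in SHR, at 0.248 per 10000 in Wistar and 0.0677 in SHR, or 3.66-fold lower, with a log2 difference of -0.23. RT1-A1 stood at 2.51 times RT1-A2 in the Wistar neurons and at 26.6 times RT1-A2 in the SHR neurons.

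The CE genes encode nonclassical class I heavy chains. RT1-CE4 averaged 1.14 per 10000 in Wistar neurons against 0.336 in SHR neurons, which is 3.40-fold lower, with a log2 difference of -0.68. RT1-CE10 averaged 0.533 in Wistar neurons against 0.0536 in SHR neurons, 9.94-fold lower, with a log2 difference of -0.54, and only 11 of the genes past the minimum had a ratio further toward Wistar. RT1-CE5 was close between the libraries, at 0.185 per 10000 in Wistar against 0.166 in SHR neurons (log2 difference -0.024). This small difference became 0.028 when the median difference of all genes was set to 0. The 6 CE genes together summed to 1.87 per 10000 in Wistar and 0.557 in SHR, and the 2 A genes summed to 0.871 in Wistar and 1.87 in SHR. The CE sum was thus 2.14 times the A sum in Wistar and 0.298 times the A sum in SHR.

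RT1-M3-1, the rat relative of the mouse molecule H2-M3 that presents formylated peptides, was the most abundant class I gene in Wistar. It averaged 1.54 per 10000 in Wistar neurons against 1.19 in SHR neurons, 1.29-fold lower, with a log2 difference of -0.21. It ranked 1072 among all genes in Wistar and 1341 in SHR. The other M genes were at or near 0. RT1-M2 was listed at 0.000289 per 10000 in Wistar neurons and at 0 for the SHRs, and RT1-M4, RT1-M5, RT1-M6-1 and RT1-M6-2 were at 0 in both.

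The 7 genes of the N, S and T24 families were below the minimum and summed to 0.247 per 10000 in Wistar and 0.0787 in SHR. RT1-T24-4 had means of 0.145 and 0.0265 per 10000 in Wistar and SHR. RT1-S3, the relative of mouse H2-T23, had means of 0.0845 and 0.0312. RT1-T24-3 had 0.0132 and 0.00845, and RT1-N3 had 0.00232 and 0.00108. RT1-N2 was the 1 gene of these families with the larger value in SHR, at 0.00139 per 10000 in Wistar and 0.0115 in SHR. RT1-T24-1 and RT1-S2, and in the CE family RT1-CE1, were listed at 0.0005 per 10000 or less in Wistar and at 0 in SHR. RT1-CE7 had means of 0.00509 and 0.00124, and RT1-CE3 was at 0 in both libraries.

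Over all 21 class I genes the sum was 4.53 per 10000 in Wistar and 3.70 in SHR, 1.22-fold lower, a log2 ratio of -0.29. With the median log2 ratio of all genes set to 0, this log2 ratio was -0.079. Without RT1-A1, an alternative chosen after its value was seen, the sum was 3.90 in Wistar and 1.90 in SHR, a log2 ratio of -1.04. RT1-A1 made up 13.8% of the class I sum in Wistar and 48.7% in SHR, while RT1-CE4 made up 25.3% and 9.08%. The class total thus differed less between the libraries than its make-up did. Of the class I promoters, 6 were aligned, and the A and CE windows were alike while that of RT1-M3-1 stood apart. Promoter letters are not the 3′ tags that were counted. Class I genes are known to include close copies, and reads that could come from several of them cannot be told apart in means over cells. The values of single A and CE genes are uncertain for this reason, and whether the class sum is affected too was not tested. In the GRCr8 annotation the spans of RT1-CE4, RT1-CE5 and RT1-CE7 overlap, as do those of RT1-T24-3 and RT1-T24-4. The reference genome comes from the BN strain. RT1 alleles are known to differ widely between rat strains, and how the reads of either strain were assigned was not tested.

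**Figure D2:**
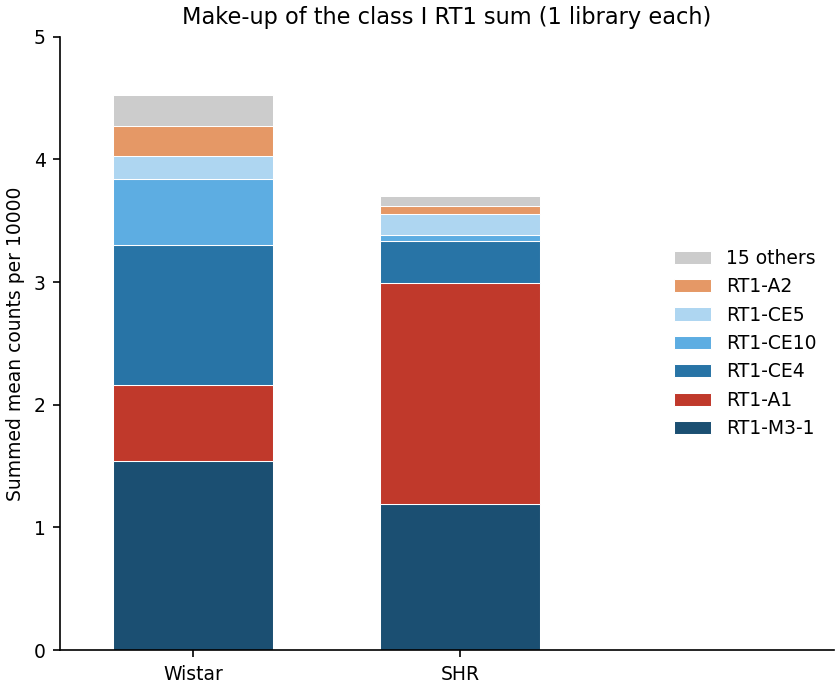
Stacked bars of the summed class I means per 10000 in the Wistar and SHR libraries, each layer 1 gene past the minimum and the top layer the other 15 class I genes. The bars reach 4.53 and 3.70, and the layer of RT1-A1 is 0.623 in Wistar and 1.80 in SHR while those of RT1-CE4 and RT1-CE10 are thinner in SHR.

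Along chromosome 20 the RT1 genes follow each other in blocks, and neighbours within a block could differ in ratio. In the order of GRCr8, 34 of the 42 genes lie on this chromosome, with the M, N, S and T24 genes first, then the CE genes, the class II genes with Tap1 and Tap2 among them, and the A genes and Tapbp last. RT1-A2 and RT1-A1 are neighbours among the members and had ratios of 0.273 and 2.89. How reads were assigned between RT1-A2 and RT1-A1 was not tested. RT1-Ba and RT1-Bb are also neighbours, and RT1-Ba had a ratio of 0.664. RT1-Bb was below the minimum, with means of 0.131 in Wistar and 0.0118 in SHR, so this pair says little about neighbours.

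**Figure D3:**
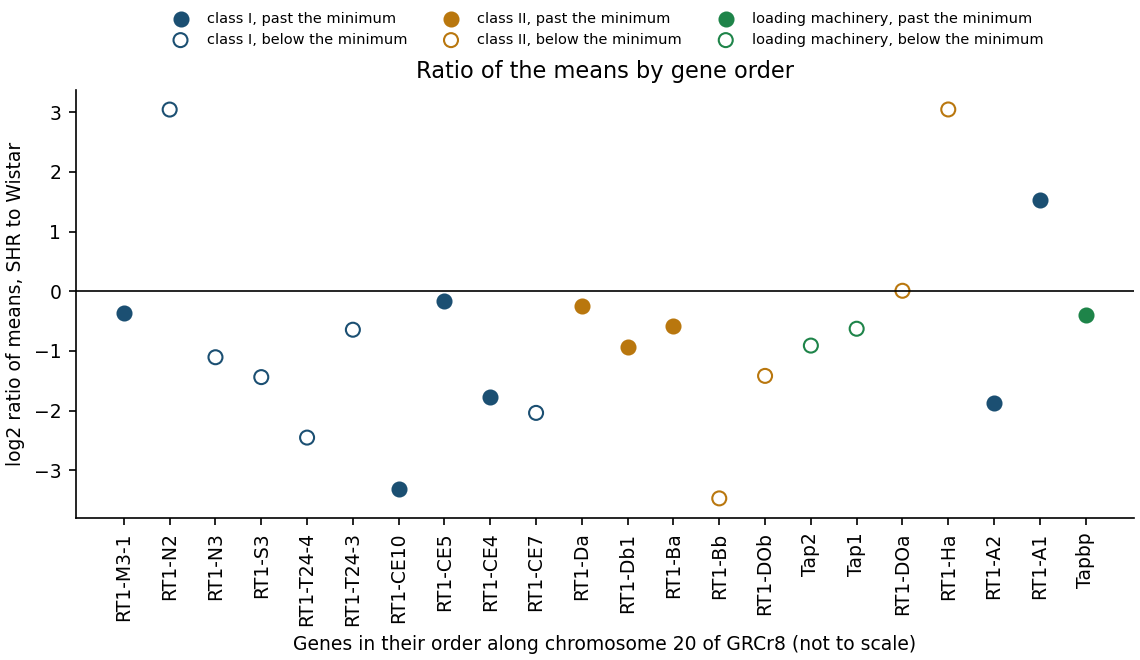
Log2 ratio of the means, SHR to Wistar, for the 22 members of chromosome 20 that were above 0 in both libraries, in gene order and not to scale, with filled points past the minimum and open points below it. RT1-A1 is the 1 filled point above 0. Of the open points, RT1-N2 and RT1-Ha are far above 0 at means of at most 0.0115 per 10000.

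The class II genes were lower in SHR as a sum, with the D pair the most abundant in both strains. The sum over 10 genes was 1.27 per 10000 in Wistar and 0.770 in SHR, 1.65-fold lower, a log2 ratio of -0.72, which was -0.51 with the median log2 ratio of all genes set to 0. RT1-Da, the alpha chain of the rat counterpart of HLA-DR, averaged 0.421 per 10000 in Wistar neurons against 0.356 in SHR neurons, 1.18-fold lower, with a log2 difference of -0.067. RT1-Db1, the beta chain of the same molecule, averaged 0.547 in Wistar neurons against 0.286 in SHR neurons, 1.92-fold lower, with a log2 difference of -0.27. The alpha chain gave fewer tags than the beta chain in Wistar, at 0.768 times, and more in SHR.

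RT1-Ba and RT1-Bb encode the alpha and beta chains of the counterpart of HLA-DQ. RT1-Ba averaged 0.164 per 10000 in Wistar neurons against 0.109 in SHR neurons, a ratio of 0.664 that lies just past the limit of 1.5-fold, with a log2 difference of -0.070. RT1-Bb was below the minimum, at 0.131 per 10000 in Wistar and 0.0118 in SHR. RT1-Ba tags thus came close to RT1-Bb tags in Wistar and were 9.23 times as many in SHR, where the RT1-Bb mean was low. As for class I, how the reads of either strain were assigned to the class II genes was not tested.

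The genes of the class II peptide exchange were near 0 in these neurons. RT1-DMa, a subunit of the exchange factor DM, was listed at 0.000278 per 10000 in Wistar neurons and at 0 for the SHRs, and its partner RT1-DMb was at 0 in both libraries. RT1-DOa, a subunit of the DM regulator DO, averaged 0.00252 and 0.00253 per 10000 in Wistar and SHR, and RT1-DOb 0.00451 and 0.00169. RT1-Ha was listed at 0.000237 and 0.00196, and RT1-Db2 at 0 in Wistar and 0.000844 in SHR.

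Cd74, the invariant chain that guides class II molecules to the endosome, was lower in SHR as well. It averaged 0.843 per 10000 in Wistar neurons against 0.329 in SHR neurons, 2.57-fold lower, with a log2 difference of -0.47. Cd74 stood at 0.664 times the class II sum in Wistar and 0.427 times in SHR. Ciita, the transactivator of class II genes, was listed at 0.00224 per 10000 in Wistar neurons and at 0 for the SHRs.

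Class II genes and Cd74 are known from macrophages, and the markers of immune cells were also lower in SHR. Of 16 immune markers, 14 have a line, all below the minimum. They summed to 0.641 per 10000 in Wistar and 0.160 in SHR, with 11 lower and 1 higher in SHR, and Cd163 and Cd3e were at 0 in both. No share of all genes lower in SHR was computed below the minimum to set beside this count. C1qa, a macrophage complement gene, averaged 0.138 in Wistar neurons against 0.00727 in SHR neurons, and Ptprc, the common leukocyte antigen, had 0.00388 and 0.00473. The sum of class II RT1 genes and Cd74 was 3.30 times the immune marker sum in Wistar and 6.86 times in SHR. The 8 markers of satellite glia and Schwann cells summed to 8.30 per 10000 in Wistar and 2.82 in SHR, with Apoe at 6.24 and 2.23. All 8 were lower in SHR, and 5 of them passed the minimum, against 65.6% lower among all genes past it. The 6 fibroblast markers summed to 1.84 and 0.353, and the 6 listed endothelial markers to 0.232 and 0.0492. The 5 smooth muscle and pericyte markers, all below the minimum, summed to 0.117 and 0.0693, with 3 lower and 2 higher in SHR. The 4 listed erythrocyte markers summed to 0.0669 and 0.0499, and 2 of them were at 0 in both libraries. The marker sums were lower in the same library as the class I sum, the class II sum and Cd74, and their part in these differences was not tested. In means over cells, transcripts of the neurons and of other cells caught with them cannot be told apart.

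**Figure D4:**
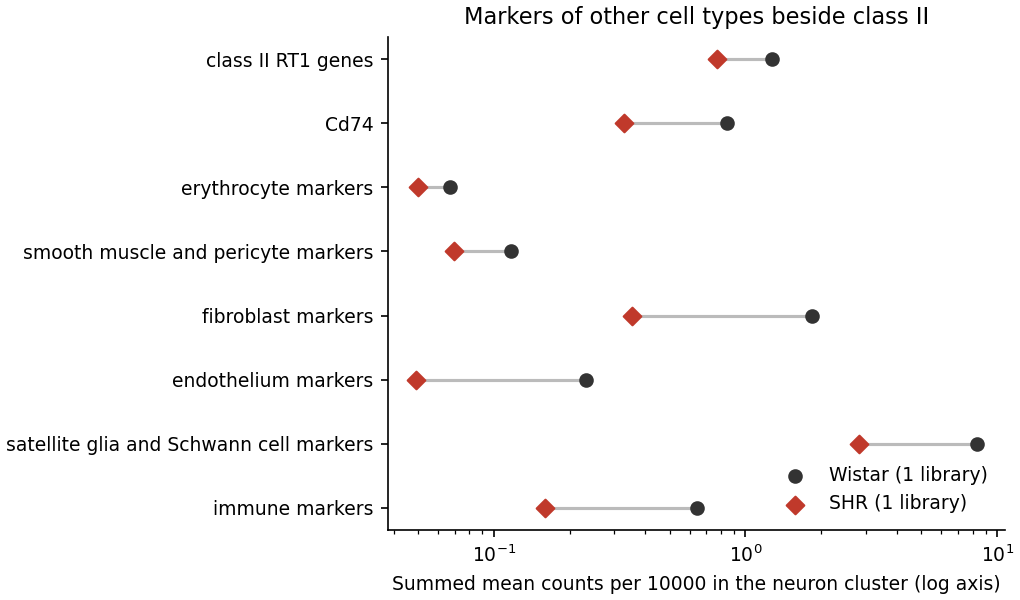
Summed mean counts per 10000 (log axis) of the marker lists of other cell types, of Cd74 and of the class II RT1 genes in the neuron cluster, with circles for Wistar and diamonds for SHR. All 8 rows have the SHR diamond to the left, with class II at 1.27 and 0.770 and immune markers at 0.641 and 0.160.

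The loading machinery held the most abundant members, and 6 of its 7 genes past the minimum had the smaller value in SHR, against 65.6% of all genes. B2m, the light chain shared by all class I molecules, averaged 6.38 per 10000 in Wistar neurons against 6.82 in SHR neurons, with a log2 difference of 0.084, and was the only loading gene with the larger value in SHR. It ranked 162 among all genes in Wistar and 191 in SHR. B2m tags were 1.41 times the class I heavy chain sum in Wistar and 1.84 times in SHR.

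The chaperones that fold the heavy chain were also abundant and were lower in SHR. Canx (calnexin), which holds the free heavy chain, averaged 6.50 per 10000 in Wistar neurons against 5.21 in SHR neurons, with a log2 difference of -0.27. Calr (calreticulin), a part of the peptide loading complex, stood at 6.38 in Wistar against 4.77 in SHR neurons (log2 difference -0.35). Pdia3, the disulfide isomerase of the complex, had 2.87 and 2.59, a log2 difference of -0.11. All 3 serve glycoproteins in general. Their sum was 15.7 per 10000 in Wistar and 12.6 in SHR. Canx and Calr belong to the 390 genes averaging 3 to 10 per 10000, of which 33.6% had the smaller value in SHR, with a median ratio of 1.18. Pdia3 belongs to the 1192 genes averaging 1 to 3, where it was 50.7%, with a median ratio of 0.994. Hspa5, the main chaperone of the endoplasmic reticulum and outside the members, averaged 5.71 in Wistar neurons against 3.88 in SHR neurons.

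The genes dedicated to class I peptides were low. Tapbp (tapasin), which bridges the transporter and the heavy chain, averaged 0.140 per 10000 in Wistar neurons against 0.106 in SHR neurons, with a log2 difference of -0.043 that became 0.0089 with the median difference of all genes set to 0. Tap1 was below the minimum at 0.0927 and 0.0600 per 10000, and Tap2 at 0.0236 and 0.0126. Erap1, the aminopeptidase that trims peptides in the endoplasmic reticulum, averaged 0.657 in Wistar neurons against 0.334 in SHR neurons, 1.97-fold lower, with a log2 difference of -0.31. Nlrc5, the transactivator of class I genes, was listed at 0.000344 per 10000 in Wistar neurons and at 0 for the SHRs. The 11 genes together summed to 23.9 per 10000 in Wistar and 20.2 in SHR, 1.18-fold lower, a log2 ratio of -0.24, which was -0.026 with the median log2 ratio of all genes set to 0.

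**Figure D5:**
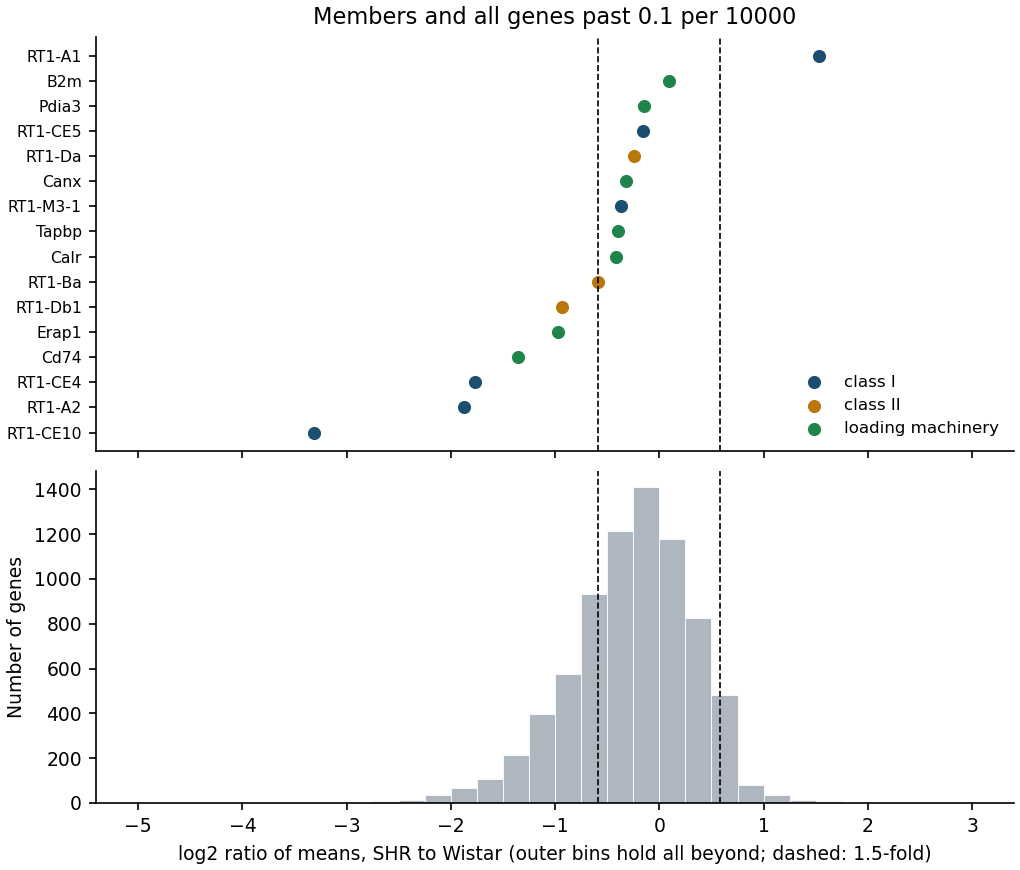
Log2 ratio of the means, SHR to Wistar, for the 16 members past the minimum (upper panel, 1 gene per row) above the histogram of all 7621 genes past the minimum (lower panel), with dashed lines at 1.5-fold. RT1-A1 lies right of the right line, 7 members lie at or left of the left line, with RT1-CE10 the farthest, and 8 lie between the lines.

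Further genes of the pathway were read from a fixed list of 51, of which 50 have a line and 28 passed the minimum. Of these 28, 22 were lower and 6 higher in SHR, with 7 lower and 2 higher by at least 1.5-fold and a median log2 difference of -0.10. Of all genes 65.6% were lower, 26.5% lower by this size and 5.22% higher by this size. Among the immunoproteasome genes, whose products cut peptides for class I, Psmb10 had means of 0.458 and 0.424 per 10000 in Wistar and SHR, while Psmb9 had 0.0917 and 0.0347 and Psmb8 had 0.000808 and 0. The proteasome activator genes Psme1 and Psme2 had means of 0.999 and 0.993 in Wistar and 0.808 and 1.02 in SHR.

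Of the 6 genes for class II processing, 5 passed the minimum, with 3 lower and 2 higher in SHR, against 65.6% of all genes lower. Lgmn, an endosomal protease, averaged 2.19 per 10000 in Wistar neurons against 2.56 in SHR neurons. Sppl2a, which clears the remnant of the invariant chain, had 0.487 and 0.272. Ctss, the protease that cuts the invariant chain in antigen-presenting cells, was at 0.0173 and 0.00156, below the minimum.

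Of the 7 transcription factor genes past the minimum, all 7 were lower in SHR, 4 of them by at least 1.5-fold. All 7 averaged 0.1 to 0.3 per 10000, a level at which 74.6% of all genes were lower and 37.0% by this size. Irf1, an interferon-induced activator of class I genes, averaged 0.271 per 10000 in Wistar neurons against 0.142 in SHR neurons. Nfyb, a subunit of the factor that binds the Y box, had 0.351 and 0.195. Of the 6 interferon receptor and kinase genes past the minimum, 5 were lower and 1 higher in SHR, against 65.6% of all genes lower. Tyk2, a kinase of the interferon receptors, averaged 0.242 per 10000 in Wistar neurons against 0.123 in SHR neurons, and Jak1, another such kinase, had 0.648 and 0.491. The higher gene was Ifngr2, a chain of the interferon gamma receptor, at 0.382 in SHR against 0.251 in Wistar. Of the 14 interferon response genes, 8 were lower and 6 higher in SHR. Of the 6 past the minimum, 4 were lower and 2 higher, which is near the 65.6% of all genes that were lower. Oas1a, an antiviral enzyme gene, had 0.0767 in Wistar and 0.163 in SHR, and Ifit2, another interferon-induced gene, had 0.169 and 0.0596. Ifi27 was the most abundant of this list at 9.96 per 10000 in Wistar and 8.17 in SHR.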

How the data were processed

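Dissociated stellate ganglia were sequenced with 10x Genomics droplet chemistry for 3′ ends. Per the labels, the submitters' processing notes name Rnor_6.0, Cell Ranger 3.0.2, Seurat 3 and, without a version, DESeq2. The authors deposited, for each of 2 libraries, a single column on the natural log (ln) scale: 1 plus the mean count per 10000 in neurons of the sympathetic cluster, then logged. Filters on cells, the treatment of doublets and the number of neurons are not given in the sources used here, and doublets cannot be sought in means.

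The means, exp(value) minus 1, sum to 10000 in each library. Repeated gene names (4 lines) were dropped. Sums, ratios and log2 differences were computed in Python 3.11.15 with NumPy 2.4.6 and pandas 2.3.3. The code of the call rule was checked on a copy of the Wistar means with set changes and no noise, which says nothing of counting error. The rule for named genes takes every member averaging at least 0.1 per 10000, and the others with both means. Members and lists were chosen with earlier results of these data known. The authors' table of their own comparison holds p-values, fold changes and 2 columns of shares of cells that name no sample, and was not used. With 1 library per strain, no test was possible. Alternatives were other library totals, centring, minimums, folds, pseudocounts and sets of summed genes. Promoters were matched by symbol.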

Additional observations from a re-analysis of the deposited data

How the results depend on the processing

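No paired analysis was possible because there is a single library per strain, and no library could be left out. With no spread to judge by, a log2 value was taken as moved when it shifted by 0.1 or more and a count when it changed by over 1.5 times. By construction, setting the median log2 ratio of all genes to 0 adds 0.21 to every log2 ratio, which gave -0.079 for class I, -0.51 for class II and -0.026 for the loading machinery. Leaving out the gene with the highest average gave -0.58 for class II (without RT1-Db1) and -0.38 for the loading machinery (without B2m). The class II sum over genes past the minimum only was -0.59, and class I without RT1-A1, chosen after seeing the data, was -1.04. Members lower by at least 1.5-fold numbered 7 of 16, but 0 of 6 above a minimum of 1 per 10000 (11.6% of all genes), 4 of 16 at a fold of 2 (11.3%) and 16 of 28 when every gene above 0 in both libraries counted (35.8%). Those higher numbered 1, and 3 of those 28 (11.6% of all genes), since RT1-N2 and RT1-Ha then count. The share of all genes past the fold moves too: with the median log2 ratio at 0 it was 17.3% lower and 13.2% higher, and 6 and 1 members. Single genes changed sign under 1 setting, the median difference set to 0, for RT1-CE5 (0.028) and Tapbp (0.0089). The size of single log2 differences depends on the value added to both means: adding 0.1 in place of 1 moved 11 of 16 and adding 10 moved 10. With 0.1 added RT1-CE10 went from -0.54 to -2.04, RT1-A2 from -0.23 to -1.05 and RT1-A1 from 0.79 to 1.40, and with 10 added they were -0.067, -0.026 and 0.15. Depth is unknown, so how far counting error reaches into the low means is unknown too.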
